A study of Mus musculus with 12 samples.

Results

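The genes of the cytosolic ribosome were followed across the 4 groups of a hippocampal mRNA sequencing experiment. They were taken as every gene of the count table named Rps or Rpl with a number, an optional a, x or y, or Rplp0 to Rplp2, with a mean expected count of at least 50 over all libraries. Names of pseudogenes and of the ribosomal S6 kinases do not match. This gave 74 genes of the 22236 in the table, 28 for the small subunit, 43 for the large subunit and 3 for its stalk, and all 74 passed the filter on low counts. The hippocampi came from adult males of the inbred strains C57BL/6J, here B6, and DBA/2J, here D2, which were injected on both sides at 3 to 5 months of age and killed after 6 weeks or more. An adeno-associated virus, AAV9, carried a short hairpin RNA against Hp1bp3, which encodes a chromatin protein (KD), or a scrambled hairpin (Ctrl), so the controls also received virus and hairpin. Each of the 4 groups, B6 Ctrl, B6 KD, D2 Ctrl and D2 KD, had 3 libraries, and nothing in the labels pairs them. The virus was delivered into the dorsal hippocampus while RNA came from the whole hippocampus, and how many cells the virus reached was not measured here.

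Ribosomal proteins are assembled with ribosomal RNA into a small subunit, which reads the mRNA, and a large subunit, which joins amino acids. Their mRNAs are short and abundant in every cell type, and most begin with a C followed by a run of pyrimidines. Through this 5′ terminal oligopyrimidine tract (TOP), the kinase mTOR and the RNA-binding protein LARP1 set how strongly these mRNAs are translated. In neurons the same mRNAs are also carried to dendrites and axons. Most ribosomal protein genes have processed pseudogenes in the mouse genome. These are intron-free copies of the mRNA that can be identical to it over the whole coding sequence, and a read from such a stretch can be placed at either locus.

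The libraries held a median of 32380282 expected counts, the reads that RSEM assigned to genes, with a lowest of 18213084 and a highest of 39420219. Levels are given as CPM, expected counts scaled to a common library size after TMM normalization. Hp1bp3 in B6 had a mean of 304 ± 9.06 with the scrambled hairpin and 209 ± 43.5 with KD (SD, n = 3 each). In D2 these means were 225 ± 9.48 and 189.7 ± 35.3, and the 2-sided exact permutation p of the KD effect, with treatment exchanged within strains, was 0.0150. In the library labelled D2 KD 3 the target stood at 229.5 CPM, between the lowest (215) and highest (234) D2 Ctrl values, which goes against its label. The score of 7 markers of hippocampal neurons, the mean of log2(CPM + 1), was 5.35 to 6.21. The choroid plexus marker Ttr ranged from 26.9 to 4568 CPM over all libraries, and from 26.9 to 4548 within D2 KD alone. All 10 interferon response genes on a list chosen with earlier results known rose in B6 KD (adjusted p under 0.05 in edgeR). Of all 15853 genes tested, 279 did so. In D2 all 10 estimates for KD were above 0, with a median log2 fold change of 1.53, and 0 passed. In tissue RNA, fewer cells of a type and less RNA per cell cannot be told apart.

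A single gene that fits the naming rule fell below the minimum. Rps27, a small subunit gene, had a mean expected count of 29.4, with 0 in all 6 B6 libraries and 36.8 to 83.6 in the D2 libraries. The member with the fewest counts, Rpl34, had a mean of 1242, and the median member 4224. Of the 74 genes, 73 carried an identifier that has the same name in GENCODE M21, a mouse annotation on build GRCm38. The exception was Rpl24, whose row carries the identifier of Zbtb11 in GENCODE M21, so it is not settled which transcripts that row counted. The 73 matched genes lie on 19 chromosomes, with 14 on chromosome 7 and 4 on X, and their coding sequences span 75 to 1257 bases.

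The coding sequences of these 73 genes were compared with all transcripts of GENCODE M21. For 11 of them, 14 pseudogenes with at least 90% identity had rows of their own in the count table. Those on which the strain comparison turned differ from their genes by a few bases. Each gene is set here beside its pseudogene over 29 bases of the coding strand, 5′ to 3′, with the differing base in capitals.
Rpl26: gttcaggttgttcgCggacactacaaagg
Gm15772: gttcaggttgttcgTggacactacaaagg
Rpl30: gtgctgggctacaaGcagactctgaagat
Gm12191: gtgctgggctacaaAcagactctgaagat
Rpl34: aaagcacctaaatcTgcatgtggcgtgtg
Rpl34-ps1: aaagcacctaaatcCgcatgtggcgtgtg
Rps15a: gttcggttcttaacCgtgatgatgaagca
Rps15a-ps6: gttcggttcttaacTgtgatgatgaagca
In this order the substitutions are C177T, G96A, T132C and C117T, with positions counted from the A of the start codon. Rpl26 (chr11:68901583-68906989, GRCm38, plus strand) differs from the processed pseudogene Gm15772 (chr5:3236431-3236868, plus strand) at 2 of 435 coding bases. Rpl30 (chr15:34440505-34443640, minus strand) differs from Gm12191 (chr11:49678710-49679057, minus strand) at 1 of 345. Rpl34 (chr3:130726831-130730398, minus strand) differs from Rpl34-ps1 (chr6:71124610-71124963, plus strand) at 2 of 351. Rps15a (chr7:118104372-118116188, minus strand) differs from Rps15a-ps6 (chr11:6172644-6173036, minus strand) at 5 of 390. The longest stretch that Rpl30 and Gm12191 share without a difference is 249 bases.

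The start sites of 54 of the genes were found in the promoter table of RefSeq (GRCm38.p6). A tract of C followed by C or T to a length of at least 7, within the 25 bases on either side of a start site, was present on the sense strand in 32 of the 54 (59.3%), against 26.2% of 15819 genes of the table. The motif CGGAAG on either strand, the core recognised by ETS-type transcription factors, lay within the 300 bases around the start site in 37 (68.5%), against 24.2%. Rpl7a, Rpl35, Rps6 and Rps12 show how such tracts look, 5′ to 3′ on the gene's strand with the tract in capitals.
Rpl7a: caattCCCTCTTCTTTCTTTCTCCagca
Rpl35: ccccgCCCTTTCCTCTTTCTCTCgaacc
Rps6: gaagtcgggCCTCTTTTTCgtgacgcct
Rps12: caccgccggCCTTTTCCCCTgccgccgc
These windows are chr2:26910790-26910817 for Rpl7a, chr2:39005116-39005143 for Rpl35, chr4:86857350-86857377 for Rps6 and chr10:23787183-23787210 for Rps12. A match describes the letters and does not show that a factor or a start of transcription is there.

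The mean level of the 74 genes over all libraries ranged from 38.2 to 551 CPM, with a median of 140.2. Rpl3, which reaches towards the peptidyl transferase centre, was highest at 551 CPM, followed by Rpl4 at 456, Rpl13a at 276, Rpl9 at 271 and Rpl6 at 270.4. The lowest were Rpl34 at 38.2, Rpl27 at 45.2, Rps13 at 59.04, Rps16 at 59.4 and Rps28 at 59.5, and each of these 5 differed between the strains. A low level in a single strain lowers the mean over all libraries, so this is partly built into the ranking. Rpl34 was at 71.5 CPM in B6 Ctrl and Rpl27 at 84.3 in D2 Ctrl. Levels of different genes were compared per kilobase of coding sequence, while the counts also include reads from untranslated parts of the mRNA. A gene with long untranslated parts therefore stands higher on this scale. Rpl41 has 75 coding bases in a transcript of 582. In B6 Ctrl the 73 genes ranged from 19.1 CPM per kilobase for Rpl27 to 2695 for Rpl41, whose coding sequence is the shortest, and in D2 Ctrl from 13.9 for Rpl34 to 2810.1 for Rpl41. The SD over genes of the log2 level per kilobase was 1.33 in B6 Ctrl and 1.00 in D2 Ctrl.

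The strains differed in many of these genes. Averaged over treatments, 36 of the 74 (48.6%) were called by edgeR's quasi-likelihood test at an adjusted p under 0.05, against 21.3% of all genes tested. DESeq2 called 40 (54.1%), against 24.6%, and limma-voom 36 (48.6%), against 21.1%, and 44 (59.5%) had an unadjusted p under 0.05 in edgeR, against 30.3%. Of the 36, 26 (35.1%) were higher in D2, against 8.64% of all genes, and 10 (13.5%) were lower, against 12.7%. The median log2 difference, D2 over B6, was 0.066 over the members and 0.016 over all genes, and the former was 0.022 without D2 Ctrl 3 and 0.11 without D2 Ctrl 2. Differences below are D2 over B6 averaged over treatments, unless stated, and on the log2 scale. At least 2-fold differences were found in 16 genes that were higher and 3 that were lower in D2, and such differences were called in 8.34% of all genes. In 23 genes (31.1%) all 6 D2 libraries lay above all 6 B6 libraries, against 5.51% of all genes, and in 7 (9.46%) they lay below, against 9%. In Ctrl mice alone, 27 were called, against 14% of all genes, with 22 (29.7%) higher, against 5.23%, and 5 (6.76%) lower, against 8.75%. DESeq2 called 31 in Ctrl mice (41.9%), against 16.9% of all genes. Reads of each strain were aligned to the genome of that strain, so a difference between the strains and a difference between the 2 references cannot be told apart.

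Rpl34, Rpl30 and Rpl26, all of the large subunit, were the genes called at least 2-fold lower in D2. Rpl34 in B6 had 74.6, 73.1 and 66.9 CPM in the Ctrl libraries and 67.7, 67.8 and 77.2 in the KD libraries. In D2 the Ctrl libraries had 4.86, 4.36 and 5.44 CPM and the KD libraries 5.98, 4.16 and 6.45, a log2 difference of -3.77 ± 0.11 (SE, adjusted p = 1.40e-09). Rpl30, whose protein binds kink-turn RNA, was at 139, 136 and 128 CPM in B6 Ctrl and 10.8, 7.75 and 15.3 in D2 Ctrl, a difference of -3.63 ± 0.14 (SE, adjusted p = 9.10e-09) over both treatments. Rpl26 was at 209.6, 198 and 178 CPM in B6 Ctrl and 18.5, 18.5 and 21.04 in D2 Ctrl, a difference of -3.30 ± 0.095 (SE, adjusted p = 1.06e-09). The B6 and D2 libraries were far apart in all 3 genes, with no overlap.

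The pseudogene printed beside each of them went the other way. Rpl34-ps1 was at 0 to 0.132 CPM in the B6 libraries and 49.6 to 73.9 in the D2 libraries. Gm12191 was at 0.288 to 1.77 CPM in B6 and 106 to 134 in D2, and Gm15772 at 0 to 0.302 in B6 and 177 to 231 in D2. Of the counts of gene and copy together, the gene held 99.9% for Rpl34, 99.3% for Rpl30 and 99.9% for Rpl26 in B6, but 7.88%, 8.14% and 9.13% in D2. The plot of genes and their copies shows this exchange. When the counts of each gene and its pseudogenes were summed before the fit, an alternative chosen after seeing the data, the log2 difference was -0.11 ± 0.088 (SE, adjusted p = 0.462) for Rpl34, -0.031 ± 0.054 (SE, adjusted p = 0.764) for Rpl30 and 0.16 ± 0.068 (SE, adjusted p = 0.153) for Rpl26, and none of the 3 was called.

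**Figure D1:**
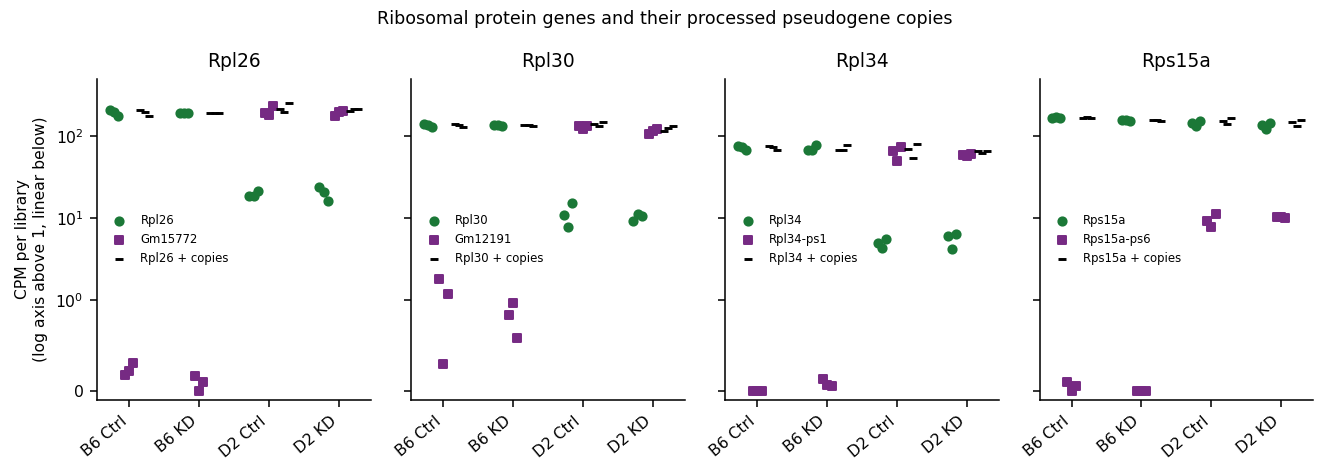
CPM per library (vertical axis, logarithmic above 1 and linear below) of 4 ribosomal protein genes (circles), the named pseudogene (squares) and the gene summed with its pseudogenes (dashes), in 4 groups of 3 libraries. For Rpl26, Rpl30 and Rpl34 the gene is high in B6 and low in D2 and the pseudogene the reverse, while the sums lie close together.

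The other 7 falls were smaller. Rps2, which lies at the mRNA entry of the small subunit, was at 329, 298 and 296 CPM in B6 Ctrl and 203, 182 and 249 in D2 Ctrl, a difference of -0.59 ± 0.098 (SE, adjusted p = 0.000958). Rplp1, a stalk protein that recruits translation factors, was at 309.6, 290.03 and 273 CPM in B6 Ctrl and 213, 200.2 and 227 in D2 Ctrl, a difference of -0.50 ± 0.052 (SE, adjusted p = 3.03e-05). For both, all D2 libraries lay below all B6 libraries. Rps18, Rpl13a, Rps19, Rps4x and Rps15a had differences of -0.38, -0.29, -0.27, -0.24 and -0.21 on the log2 scale. For Rps15a, the copy Rps15a-ps6 held 0 to 0.0955 CPM in B6 and 7.82 to 11.3 in D2, and with its copies summed the difference was -0.11 ± 0.057 (SE, adjusted p = 0.248). Rps2 and Rps19 kept their calls with copies summed, at -0.59 ± 0.098 (SE, adjusted p = 0.000964) and -0.26 ± 0.078 (SE, adjusted p = 0.0324).

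Among the genes that were higher in D2, the 8 with the greatest differences are given first. Rps6, the substrate of the S6 kinases, in B6 had 19.96, 18.8 and 17.4 CPM in the Ctrl libraries and 15.7, 14.5 and 21.97 in the KD libraries. In D2 the Ctrl libraries had 255, 228 and 278 CPM and the KD libraries 233, 246 and 240.4, a log2 difference of 3.77 ± 0.11 (SE, adjusted p = 1.06e-09). Rpl31, at the rim of the exit tunnel, was at 17.3, 15.7 and 13.7 CPM in B6 Ctrl and 188, 187 and 215 in D2 Ctrl, a difference of 3.64 ± 0.086 (SE, adjusted p = 2.08e-10). Rpl12, at the base of the stalk, was at 14.7, 13.9 and 12.7 in B6 Ctrl and 142, 128 and 147 in D2 Ctrl, a difference of 3.32 ± 0.072 (SE, adjusted p = 1.42e-10). In each of these genes the lowest D2 library was several times the highest B6 library.

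Rpl5, which carries ribosomal RNA into the large subunit together with Rpl11, was at 36.1, 40.2 and 34.2 CPM in B6 Ctrl and 256, 239 and 294 in D2 Ctrl, a difference of 2.79 ± 0.075 (SE, adjusted p = 7.16e-10). Rps16, which reaches the tRNA in the peptidyl site, was at 15.5, 14.4 and 11.2 CPM in B6 Ctrl and 103, 90.6 and 117 in D2 Ctrl, a difference of 2.67 ± 0.12 (SE, adjusted p = 3.52e-08). Rpl27 was at 7.11 to 12.8 CPM over the 6 B6 libraries and 72.98 to 93.4 over the 6 D2 libraries, a difference of 3.25. Rpl28 ranged over 14.8 to 21.8 CPM in B6 and 131 to 166 in D2, a difference of 3.03. Rps13 ranged over 11.6 to 16.2 CPM in B6 and 95.2 to 116 in D2, a difference of 2.92. In none of these 8 genes did the strains overlap. These 8 genes include members of both subunits and no stalk protein. A further 8 genes were at least 2-fold higher in D2, namely Rpl27a (2.35 on the log2 scale), Rpl10a of the mobile L1 stalk (2.29), Rpl10 (1.94), Rps23 of the decoding centre (1.88), Rps12 (1.78), Rpl15 (1.55), Rpl24 (1.23) and Rpl21 (1.05).

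The strains stood less far apart in these 8 genes. Rpl27a was at 40.5 to 51.2 CPM over the 6 B6 libraries and 221 to 267 over the 6 D2 libraries. Rpl10a was at 16.8 to 26.8 CPM in B6 and 87.3 to 116 in D2. Rpl10, which joins the large subunit late in its assembly, was at 66.7 to 86.4 CPM in B6 and 265 to 317 in D2. In each of these 3 genes the D2 range began above the B6 range. Rps23 was at 60.2 to 69.8 CPM in B6 and 209 to 259.5 in D2, a difference of 1.88 ± 0.062 (SE, adjusted p = 2.65e-09). Rpl15 was at 83.4 to 98.7 CPM in B6 and 243 to 284 in D2. Both genes were without overlap. The row named Rpl24 was at 47.6 to 75.2 CPM in B6 and 133 to 160.3 in D2. Rpl21 was at 125 to 144 CPM in B6 and 251 to 315 in D2. Rps12 had the widest spread of these in B6, at 15.8 to 43.95 CPM over both treatments, against 97.2 to 131 in D2.

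The annotation was searched for loci whose transcripts match the whole coding sequence of a member at 100%. Of the 73 genes, 19 had such a match, 25 loci in all, 22 of them annotated as pseudogenes, and none of the 25 had a row in the count table. Of these 19 genes, 15 were called higher in D2, 0 lower and 4 (Rpl36a, Rpl41, Rpl13 and Rpl38) were not called, with a median log2 difference of 2.29. Rps6-ps4, Rpl31-ps8, Gm10275 for Rpl12, Gm15500 for Rpl5 and Rps16-ps2 are examples. Of the 14 other genes with a near-identical sequence in another row, 2 were called higher and 7 lower. In 3 of these 14 that row was a protein-coding gene, namely Flt3l for Rpl13a, BC004004 for Rpl21 and Wdr89 for Rplp2. Flt3l overlaps Rpl13a on the same strand of chromosome 7, so its match is not a copy at another locus. Of the 40 with neither, 8 were called higher, 3 lower and 29 were not called, with a median of 0.054. Of the 16 genes that were at least 2-fold higher in D2, 13 had an identical copy, and the other 3 were Rpl21, Rpl24 and Rps23. BC004004 was at 45.9 to 56.7 CPM in B6 and 45.96 to 55.3 in D2. Rps23 has copies in the annotation that match part of its coding sequence at 100%. Rps10 also has such a partial match, and it was not called, with a log2 difference of -0.010. Of the 40 genes with neither kind of copy, 38 still had a near-identical copy (at least 90%) in the annotation alone. Rpl8, for which no copy was found, had a log2 difference of 0.041 and was not called.

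The 13 genes had a median level of 41.3 CPM per coding kilobase in B6 Ctrl and 295 in D2 Ctrl. The 40 genes with neither kind of copy had medians of 305 and 357, with an SD over genes of 0.54 and 0.50 on the log2 scale. The 13 were picked by their strain difference, so these levels are a description. The plot of strain differences shows the 3 kinds of gene. The annotation release that the authors counted on was not given in the sources used here, and the part of these copies in the strain differences was not tested.

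**Figure D2:**
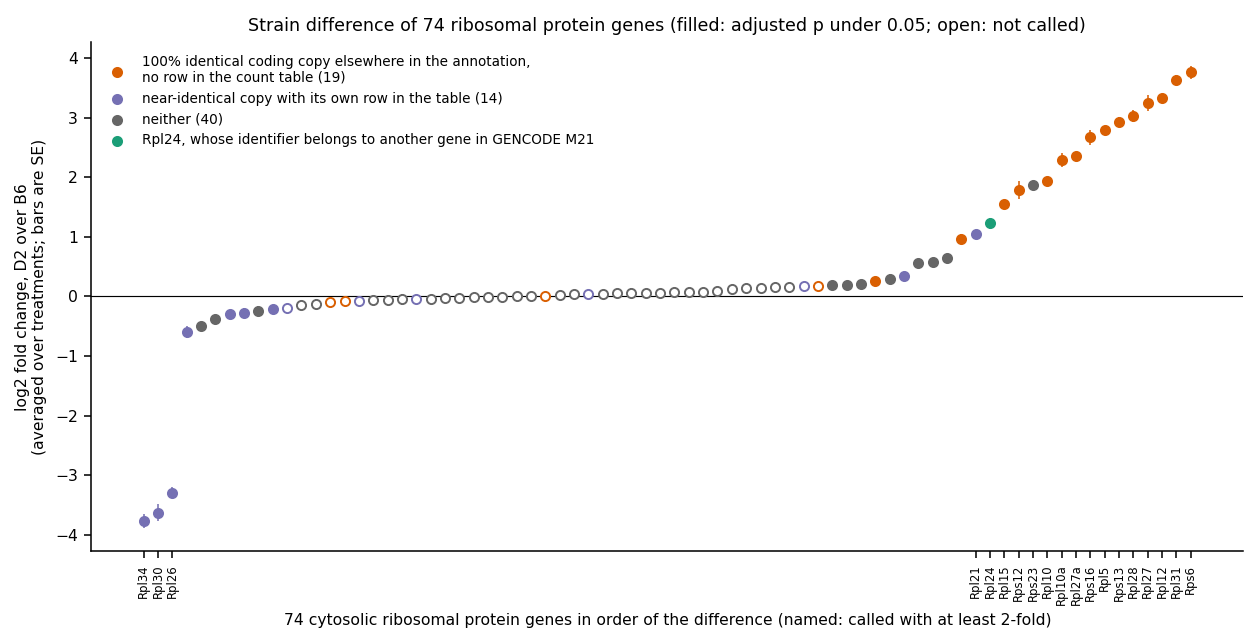
Log2 fold change of each of the 74 genes, D2 over B6 averaged over treatments (vertical axis, bars are SE from edgeR, 6 libraries per strain), ordered by size, coloured by the kind of copy found for its coding sequence, and named where called with at least a 2-fold difference. The 13 filled orange points above 1 are genes with an identical copy that has no row in the count table, and Rpl34, Rpl30 and Rpl26, at the lower left, have a pseudogene with a row of its own. Rpl41 has both kinds of copy and is coloured by the identical one.

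Among the 40 genes with neither kind of copy, Rps23 at 1.88 had the greatest log2 difference, and Rpl11 at 0.58 ± 0.069 (SE, adjusted p = 7.88e-05) and Rpl35 at 0.57 ± 0.047 (SE, adjusted p = 4.79e-06) were also higher in D2. Rpl35 in B6 had 73.5, 72.03 and 68.7 CPM in the Ctrl libraries and 71.1, 70.8 and 77.7 in the KD libraries. In D2 the Ctrl libraries had 109, 105 and 114 CPM and the KD libraries 106, 105 and 104. Rpl11 was at 93.96 to 110.2 CPM over the B6 libraries and 143 to 184 over the D2 libraries. For both genes no D2 library overlapped a B6 library. Rps28, which has an identical copy, was at 34.3 to 45.4 CPM in B6 and 73.7 to 92.01 in D2, a difference of 0.96 ± 0.083 (SE, adjusted p = 6.16e-06). The 38 genes that were not called lay between -0.19 and 0.18, and 43 of the 74 genes were within 1.2-fold of equality.

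Of the 5 genes with the highest levels, 4 were not called between the strains. Rpl3 was at 470.3 to 607 CPM over the 6 B6 libraries and 518 to 666 over the 6 D2 libraries, with a difference of 0.069 ± 0.073 (SE, adjusted p = 0.593). Rpl4, which reaches into the exit tunnel, was at 409.6 to 482 and 427 to 536 CPM, with a difference of 0.067 ± 0.064 (SE, adjusted p = 0.549). Rpl6 and Rpl9 had differences of -0.048 and -0.043. The ranges of the 2 strains overlapped in all 4. Among the stalk genes, Rplp0 and Rplp2 were not called, at -0.13 ± 0.090 (SE, adjusted p = 0.397) and -0.046 ± 0.078 (SE, adjusted p = 0.755). The spread within a group was small for most genes. The median over the 74 genes of the SD as a percent of the mean was 4.45% in D2 KD, 4.88% for the B6 KD libraries, 6.20% for B6 Ctrl and 9.88% for D2 Ctrl, the group with the greatest spread.

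Ribosomal proteins whose names fall outside the rule also differed between strains. Fau, a fusion of a ubiquitin-like domain with a small subunit protein, was at 29.7, 30.2 and 30.02 CPM in B6 Ctrl and 121, 102 and 127 in D2 Ctrl, a difference of 1.93 ± 0.070 (SE, adjusted p = 5.00e-09). Rpsa, also known as a laminin receptor, was lower in D2, with a difference of -0.31 ± 0.059 (SE, adjusted p = 0.00242). Rps3a1 and Gnb2l1, which encodes the scaffold protein Rack1, had estimates of 0.058 and -0.098 and were not called. Of the 6 paralogs tested (Rpl22l1, Rpl7l1, Rps27l, Rpl36al, Rpl3l and Rsl24d1), 0 were called by edgeR, DESeq2 or limma-voom, and 1, Rpl3l at 0.75 ± 0.28 (SE, adjusted p = 0.0883), had an unadjusted p under 0.05 in edgeR.

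The other genes of the pathway were also compared between the strains. Of 16 translation factors and related genes known for TOP mRNAs, 1 was higher in D2, Tpt1 at 0.50 ± 0.12 (SE, adjusted p = 0.0108), and 1 was lower, Hnrnpa1 at -0.83 ± 0.091 (SE, adjusted p = 4.21e-05). By limma-voom 2 of the 16 were called, while DESeq2 called 6 (37.5%), against 24.6% of all genes by DESeq2. Of 30 genes for ribosome assembly and ribosomal RNA synthesis, 1 was higher, Taf1b of the RNA polymerase I machinery at 0.29 ± 0.051 (SE, adjusted p = 0.00141), and 2 were lower, Nop56 at -0.37 ± 0.059 (SE, adjusted p = 0.000724) and Nop10 at -0.22 ± 0.059 (SE, adjusted p = 0.0194). Of 16 genes for the control of TOP mRNAs or ribosomal protein genes, 1 was called, the S6 kinase gene Rps6kb2, lower in D2 at -0.82 ± 0.062 (SE, adjusted p = 1.86e-06). Of 76 mitochondrial ribosomal proteins, 4 were higher and 19 lower in D2, with a median log2 difference of -0.013. Of 75 respiratory chain subunits, which also have short and abundant mRNAs, 8 were higher and 7 lower. By edgeR the shares called were 12.5% of the translation factors, 10% of the assembly genes and 6.25% of the control genes. They were 30.3% of the mitochondrial ribosomal proteins and 20% of the respiratory chain subunits, against 21.3% of all genes.

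The next comparison asked whether Hp1bp3 KD moved the ribosomal protein genes. In B6, 0 of the 74 were called by edgeR, against 2.64% of all genes tested, while 7 (9.46%) had an unadjusted p under 0.05, against 20.6% of all genes. DESeq2 called 3 of the 74 (4.05%), against 10.6% of all genes, and limma-voom 1 (1.35%), against 2.32%. The 418 calls behind the 2.64% also moved, to between 0 and 790 with a library left out. The median log2 fold change, KD over Ctrl, was 0.018, with 42 estimates above and 32 below 0, and 69 of the 74 genes were within 1.2-fold of equality. By subunit the medians were 0.028 for the small subunit, 0.000764 for the large subunit and 0.11 for the 3 stalk genes. All 3 KD libraries lay above all 3 Ctrl libraries in 14 genes (18.9%), against 13.9% of all genes, and below them in 3 (4.05%), Rps15a, Rpl37 and Rpl21, against 14%. The sign of the median rested on single libraries and on the scaling, being -0.041 without B6 Ctrl 3, with 22 estimates above 0, and -0.045 without B6 KD 3, with 30 above 0. With all libraries it was -0.00499 with the size factors of DESeq2, with 36 above and 38 below 0, and -0.00978 with TMM computed without the 74 genes, with 33 above and 41 below 0. The median over all genes moved too, from 0.00252 to -0.0182 and -0.0238 under these scalings. It was -0.00432 without B6 Ctrl 3 and -0.0306 without B6 KD 3.

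Rps12 had the largest estimate. Rps12 in B6 had 22.1, 15.8 and 32.3 CPM in the Ctrl libraries and 43.95, 41.8 and 40.6 in the KD libraries. In D2 the Ctrl libraries had 107, 97.2 and 131 CPM and the KD libraries 105, 103 and 107. The B6 KD libraries were close to each other and above the 3 Ctrl libraries, which ranged over 15.8 to 32.3. The log2 fold change in B6 was 0.85 ± 0.21 (SE, adjusted p = 0.0538) by edgeR, 0.82 by DESeq2 (adjusted p = 0.00357) and 0.89 by limma-voom (adjusted p = 0.0492). Over all alternatives the edgeR, DESeq2 and limma-voom adjusted p ran from 0.00357 to 0.223, and the log2 fold change from 0.61 to 1.12. Rps12 has 2 identical copies in the annotation, Rps12-ps3 and Rps12l1, which have no row in the table. In D2 the change was -0.090 ± 0.20 (SE, adjusted p = 1), and the difference of the 2 changes was -0.94 ± 0.29 (SE, adjusted p = 0.821).

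Rplp0, the base of the stalk, was at 179, 180.5 and 164 CPM in B6 Ctrl and 217, 217 and 261 in B6 KD, a log2 fold change of 0.41 ± 0.13 (SE, adjusted p = 0.103). Rpl41 was at 214, 209.97 and 182 CPM in B6 Ctrl and 250.5, 247 and 264 in B6 KD, a change of 0.33 ± 0.095 (SE, adjusted p = 0.0843). Rps16 was at 15.5, 14.4 and 11.2 CPM in the B6 Ctrl libraries and 15.9, 17.1 and 23.6 with KD, a change of 0.46 ± 0.17 (SE, adjusted p = 0.144). In these 3 genes each B6 KD library was above each B6 Ctrl library, and in D2 the groups overlapped. DESeq2 called Rplp0 (adjusted p = 0.0400) and Rpl41 (adjusted p = 0.0208) and limma-voom called neither. The other 3 genes with an unadjusted p under 0.05 were Rps9 at 0.23 ± 0.088 (SE, adjusted p = 0.174), Rpl10 at 0.22 ± 0.088 (SE, adjusted p = 0.185) and Rps18 at 0.21 ± 0.094 (SE, adjusted p = 0.237). Rps16 and Rpl41 also have identical copies with no row in the table, 1 and 4 of them, and so has Rpl10 (Rpl10-ps1 and Rpl10-ps3). Rpl24, Rpl3 and Rpl21 had the smallest p among negative estimates, with -0.20 ± 0.12 (SE, adjusted p = 0.408), -0.18 ± 0.10 (SE, adjusted p = 0.360) and -0.13 ± 0.075 (SE, adjusted p = 0.369) by edgeR. The plot of 4 genes by library shows the B6 values beside the D2 values.

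**Figure D3:**
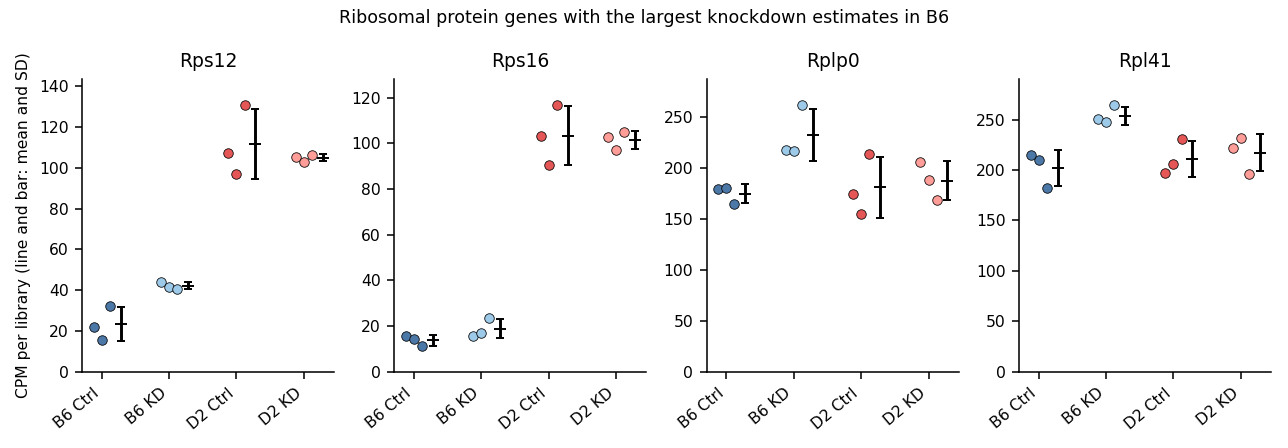
CPM per library (vertical axis, linear from 0) of Rps12, Rps16, Rplp0 and Rpl41 in 4 groups of 3 libraries, with the group mean and SD at the right of the points. In B6 the KD points lie above the Ctrl points in each panel, and in D2 they overlap.

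In D2, 0 of the 74 genes were called by edgeR, against 0% of all genes, 0 had an unadjusted p under 0.05, against 2.85%, and DESeq2 and limma-voom called 0, against 0.00631% and 0%. The estimates were above 0 in 8 genes and below 0 in 66, with a median log2 fold change of -0.085, against 0.00412 over all genes. This rested on 1 library. Without D2 Ctrl 3 the median was -0.0085, with 31 estimates above and 43 below 0. In D2 Ctrl 3 all 74 genes were above their own mean over the 6 D2 libraries, by a median of 0.20 on the log2 scale, while in D2 Ctrl 2 it was 5 of the 74. Without the library labelled D2 KD 3 the median was -0.10, with 9 above and 65 below 0. All 3 KD libraries lay below all 3 Ctrl libraries in 6 genes (8.11%), Rpl36a and Rpl32 among them, against 3.03% of all genes, and above them in 0, against 2.93%. Among the genes of smallest p were Rpl21 and Rpl14 on the negative side, with -0.14 and -0.14, and Rpl34, Rpl39 and Rpl41 on the positive side, with 0.17, 0.056 and 0.041, each with an adjusted p of 1.

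**Figure D4:**
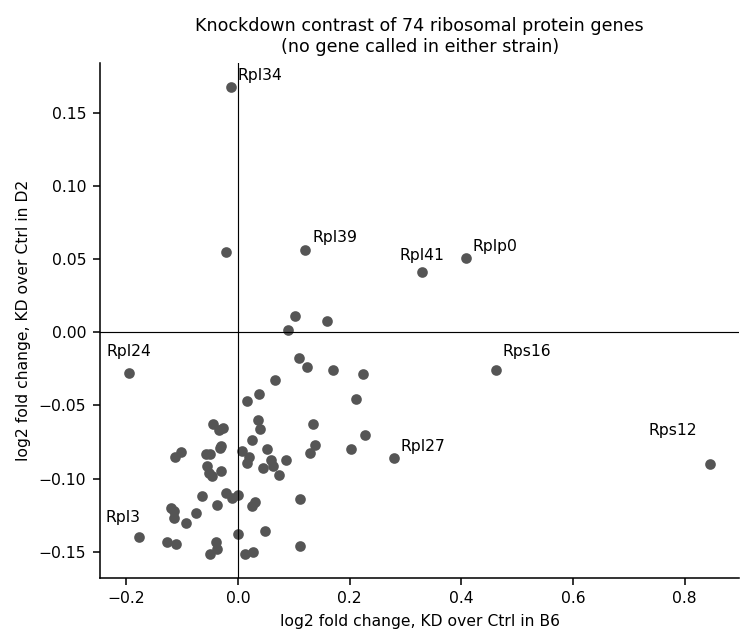
Log2 fold change of each of the 74 genes, KD over Ctrl, in B6 (horizontal axis) and in D2 (vertical axis), 3 libraries per group, with selected genes named. Most points lie within 0.2 of 0 in both strains and below 0 in D2, and Rps12, Rps16, Rplp0 and Rpl41 stand to the right.

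The summed share of the 74 genes in a library is a percent of expected counts before TMM scaling. In B6 they took 1.11, 1.08 and 0.968% of the expected counts in the Ctrl libraries (mean 1.05 ± 0.0761%, SD, n = 3) and 1.09, 1.11 and 1.14% in the KD libraries (mean 1.11 ± 0.0249%). In D2 it was 1.27, 1.17 and 1.49% in the Ctrl libraries (mean 1.31 ± 0.164%) and 1.24, 1.26 and 1.25% in the KD libraries (mean 1.25 ± 0.0144%). KD and Ctrl overlapped in both strains, and every D2 library was above every B6 library. Sums of the normalized signal that the authors deposited had B6 means of 323423 ± 18724 in Ctrl and 323366 ± 8853 in KD (SD). In D2 these means were 398878 ± 38045 and 375169 ± 5935. The spread within D2 Ctrl was greater than the difference between KD and Ctrl in either strain. Over the 40 genes with neither kind of copy the B6 libraries ranged from 0.648% to 0.757% and the D2 libraries from 0.69% to 0.892%, and the strains overlapped.

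**Figure D5:**
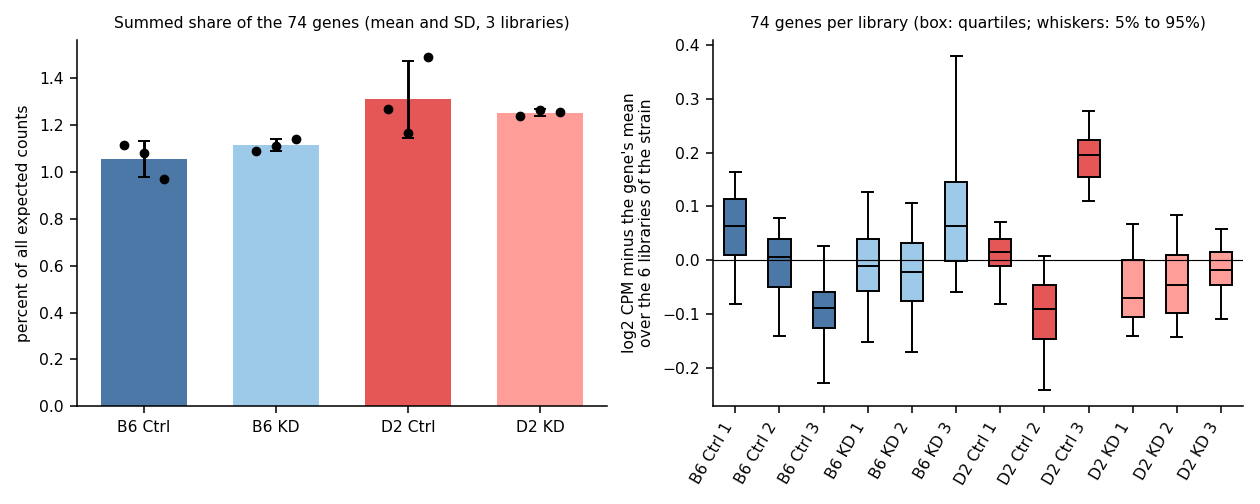
Left, percent of all expected counts taken by the 74 genes in each library (points), with group means (bars from 0) and SD (n = 3). Right, for each library, the log2 CPM of each gene minus its mean over the 6 libraries of that strain, as a box of quartiles over the genes with whiskers that leave out 5% at each end. D2 Ctrl 3 has the highest share and stands above 0 for all 74 genes.

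Other features moved with D2 Ctrl 3. Its astrocyte score, the mean log2(CPM + 1) of 8 markers, was 9.08, the highest of the 12 libraries, against 8.65 and 8.41 in the other D2 Ctrl libraries. Its neuron score over 7 markers was 9.41, against 9.60 and 9.58, and its oligodendrocyte score over 7 markers was 7.48, the lowest of the 12. Its hippocampal neuron score was 5.36, against 5.99 and 5.85. Its interferon response score over 10 genes was 3.88, against 2.50 and 2.58. Their part in the level of the ribosomal protein genes was not tested. In B6 KD the interferon response score was 4.89 to 6.54 against 2.27 to 2.62 in B6 Ctrl, and the microglia score over 10 markers was 5.61 to 6.36 against 5.05 to 5.29. The astrocyte score was 8.66 to 8.94 against 8.33 to 8.36, with 6 of its 8 marker estimates above and 2 below 0. Of these markers only Aqp4 was called by edgeR (adjusted p = 0.0326). The hippocampal neuron score was 5.79 to 5.98 against 6.04 to 6.21. None of these 4 scores overlapped, while the summed share of the ribosomal protein genes did, and the part of the scores was not tested.

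Averaged over the strains, 0 of the 74 genes were called for KD by edgeR, against 0% of all genes, and 4 (5.41%) had an unadjusted p under 0.05, against 19.2%. DESeq2 called 1 (1.35%), against 7.83% of all genes, and limma-voom 0, against 0%. The median log2 fold change was -0.037. Rps12 at 0.38 ± 0.14 (SE, adjusted p = 0.192), Rplp0 at 0.23 ± 0.090 (SE, adjusted p = 0.205) and Rpl41 at 0.18 ± 0.067 (SE, adjusted p = 0.176) had the smallest p among positive estimates by edgeR, and Rpl21, Rpl3 and Rpl14 at -0.14, -0.16 and -0.13 among negative ones. The gene that DESeq2 called was Rpl21, with -0.15 ± 0.050 (SE, adjusted p = 0.0434). For the interaction, the KD change in D2 minus that in B6, 0 were called by edgeR, against 0% of all genes, 2 (2.70%) had an unadjusted p under 0.05 (Rps12 and Rps9), against 5.91%, and DESeq2 and limma-voom called 0. The changes therefore were not shown to differ between the strains in any of these genes.

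No other gene of the ribosome or of its control was called for KD in either strain by edgeR. This held for the 5 ribosomal proteins outside the naming rule, the 6 paralogs, the 16 translation factors, the 30 assembly genes, the 16 control genes, the 76 mitochondrial ribosomal proteins and the 75 respiratory chain subunits. In B6, 26 of these 224 genes (11.6%) had an unadjusted p under 0.05 in edgeR, against 20.6% of all genes. DESeq2 called 11 of them (4.91%), against 10.6%, and limma-voom 0. The 16 control genes held 7 of the 26, which is 43.75% of that list, against 20.6% of all genes. They also held 6 of the 11 DESeq2 calls (37.5% of the list, against 10.6%), namely Akt1, Eif4ebp1, Eif4ebp2, Myc, Mycn and Tsc2. Of their 16 estimates in B6, 6 were above and 10 below 0. Averaged over the strains, DESeq2 called 3 of the 16 (18.75%), against 7.83% of all genes. In D2, 1 of the 224 genes had an unadjusted p under 0.05 and DESeq2 and limma-voom called 0. In B6 the median log2 fold changes of these lists lay between -0.13 for the control genes and 0.081 for the translation factors, against 0.018 for the 74 ribosomal protein genes and 0.00252 for all genes tested. In D2 they lay between -0.092 for the control genes and 0.030 for the respiratory chain subunits.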

How the data were processed

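Hippocampal mRNA libraries of 12 mice were placed in 4 groups from their labels of strain and treatment. Replicate numbers follow the order of deposit and pair nothing. The authors trimmed the reads, aligned them to the genome of each mouse's strain, and estimated counts with RSEM 1.2.12 and Bowtie2 2.2.0. Per the submitters' processing notes the builds were GRCm38 and mm10. The annotation release and the strandedness of counting were not given in the sources used here. The deposited expected counts were not normalized. The authors also deposited a normalized signal from DESeq2, which equals the expected count without decimals divided by a size factor per library. Whole reads were recovered from 100% of its values, within 0.01. For most mice the authors had joined the reads of separate sequencing runs.

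Expected counts of 22236 genes were rounded. After restoring 27 symbols that had become dates, filterByExpr left 15853 genes, which were fitted together with the quasi-likelihood test of edgeR 4.0.16 in R 4.3.3 (TMM, robust, the older method), with 1 mean for each of the 4 groups, and 6 comparisons were made. Benjamini-Hochberg adjusted p-values under 0.05 over all genes were called. The standard error was taken as the absolute log2 fold change over the root of its F statistic. Members and gene lists were chosen with earlier results of these data known. Named genes were, in each comparison, the called members with up to 8 greatest rises and falls, or the 3 of smallest p in a direction where fewer than 3 were called, the 5 highest and lowest by level, and those whose strains did not overlap and differed at least 1.5-fold. Other members named for a copy or a plot were chosen after their values were seen.

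Copies were found with blastn 2.17.0 against GENCODE M21 transcripts (at least 90% identity over 150 bases and 50% of the coding sequence, or, for short ones, 80% of it). Alternatives used DESeq2 1.42.0, limma 3.58.1, other scalings, covariates and each library left out. The fit was tested on simulated data. Precision was set by the spread among the 3 libraries of a group, estimated jointly over the 4 groups, and their number limits the tests. The p of a comparison within 1 strain therefore also depended on the libraries of the other. Columns outside the 12 samples numbered 0. Protein sequences were not used here, and values of some genes are not reported here.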

Additional observations from a re-analysis of the deposited data

How the results depend on the processing

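The number of genes called between strains stayed within 1.5 times under the alternatives run, while their median did not. Averaged over treatments, 29 to 36 of the 74 genes were called with a library left out, the lowest count being without B6 Ctrl 2, and 33 to 40 under the other settings, against 36. The median difference in Ctrl mice was 0.13, with 58 above and 16 below 0, and 0.035 without D2 Ctrl 3, with 43 and 31. In Ctrl mice, 25 to 28 were called with a library left out and 24 to 31 otherwise, against 27. With copies summed, none of the 3 genes at least 2-fold lower in D2 was called, and the differences of Rpl26 and Rpl30 turned to 0.18 and 0.056 in Ctrl, and that of Rpl26 to 0.16 over both treatments, as the construction of this alternative provides. It also turned uncalled estimates, of Rpl34 for KD in D2 to -0.080 and for the interaction to -0.069, and of Rpl26 for the interaction to -0.044. For KD, edgeR called 0 members in each comparison with any library left out. DESeq2 called 3 in B6 and 1 averaged over strains, and limma-voom and the newer quasi-likelihood method called 1 in B6, Rps12. The cause was not tested. Among all genes, KD in B6 gave 418 calls in edgeR, 1688 in DESeq2, 368 in limma-voom and 612 with the newer method, and 0 with the choroid plexus score or the library total as a covariate. With a library left out, edgeR called 0 to 790 genes for KD in B6, with 0 without B6 Ctrl 1, B6 Ctrl 3, B6 KD 1, B6 KD 2 or D2 Ctrl 1 and 790 without B6 KD 3, so the background beside the members moved too. Without B6 Ctrl 2, D2 Ctrl 2 or D2 KD 1 it was 237, 45 and 124, and without D2 KD 3 it was 673. Averaged over strains DESeq2 called 1241 genes, the newer method 15 and edgeR 0, but edgeR called 799 without the library labelled D2 KD 3, 400 without B6 KD 3 and 326 without D2 Ctrl 3. With a library left out, uncalled estimates also turned. For KD in D2, Rpl39 ranged from -0.025 (without D2 Ctrl 2) to 0.14, and Rpl41 from -0.016 (without D2 Ctrl 1), with -0.010 without D2 KD 2, to 0.11. For the interaction, Rpl26 ranged from -0.039 (without D2 KD 1) to 0.21. The fit on whole reads recovered from the normalized signal called 420 genes for KD in B6. The ratio of the summed share, KD over Ctrl, was 1.06 in B6 (1.01 to 1.09 with a library left out) and 0.96 in D2 (0.91 to 1.03). Under other settings this ratio was 0.9998 to 1.05 in B6 and 0.94 to 0.95 in D2. No paired analysis was possible because replicate numbers only name the libraries. With 3 libraries a group, single values could not reach an exact p below 0.1 within a strain.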
